A study of Mus musculus with 16 samples.

Results

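The genes described here are 10 members of the p53 pathway, chosen by name: the tumour suppressor gene Trp53, its inhibitors Mdm2 and Mdm4, its upstream activator locus Cdkn2a, and the p53 target genes Cdkn1a, Bbc3, Pmaip1, Bax, Ccng1 and Phlda3. All 10 were found among the 47311 genes matched in the deposited tables, and all 10 passed the low-count filter that left 16154 genes for testing. The libraries are bulk RNA of 16 mammary tumours of female C57BL/6J mice, each grown from 250000 E0771-luciferase cells, a mouse mammary cancer line with a luciferase reporter, placed in matrigel in the gland numbered 4. Every host was obese, having eaten a high-fat diet (60% of the energy) between 8 and 26 weeks of age. Antibody (200 ug, intraperitoneal) was given from day 3 after the cells, at intervals of 3 days up to day 21: anti-PD-1, which blocks an inhibitory receptor of T cells, in 8 mice and the IgG2a isotype control in 8. All tumours come from 1 injected line, the hosts keep their own immune system, and the labels name no genotype of the line at Trp53.

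The p53 protein is a transcription factor that is held at a low level because Mdm2 attaches ubiquitin to it, with Mdm4 as a partner that masks its activation domain. When DNA is damaged or an oncogene is active, p53 is released, binds pairs of half-sites in DNA and raises genes that stop the cell cycle or start apoptosis. Among the oncogene signals is p19Arf, a product of the Cdkn2a locus that inhibits Mdm2. The same locus encodes p16Ink4a, an inhibitor of the cyclin D kinases, from another first exon. Because Mdm2 and Ccng1 are targets as well as regulators, the pathway carries feedback, and most control of p53 itself is on the protein, which RNA does not show.

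The promoter stretches below are shown because p53 acts through its half-site, and they let the members be compared at the DNA level. Promoter windows of 300 bases (250 before to 50 after a RefSeq start, build GRCm38.p6) were present for 9 of the 10 members, in 14 windows, and Pmaip1 had no window. The p53 half-site, a 10-base motif that is its own reverse complement and so covers both strands, was found in 5 of the 14 windows and in 5 of the 9 genes. Of all 32851 windows of the same length in the table, 8.36% hold it. Each line gives the stretch 5′ to 3′ on the strand of the gene, with the half-sites in capitals.
Cdkn1a, upstream start, chr17:29090886-29090957, plus strand: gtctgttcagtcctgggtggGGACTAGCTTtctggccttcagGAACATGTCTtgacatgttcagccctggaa
Mdm2, chr10:117710915-117710964, minus strand: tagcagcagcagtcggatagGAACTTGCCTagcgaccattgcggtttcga
Bax, chr7:45467070-45467119, minus strand: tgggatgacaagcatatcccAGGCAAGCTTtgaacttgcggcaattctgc
Ccng1, chr11:40755442-40755491, minus strand: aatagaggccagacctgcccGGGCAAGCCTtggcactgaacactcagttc
Trp53, chr11:69580264-69580313, plus strand: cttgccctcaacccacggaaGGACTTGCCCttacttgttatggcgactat
The half-sites began 201 bases before the start in Bax, 186 in Mdm2, 185 in Ccng1 and 75 in Trp53. In Cdkn1a there were 2, at 73 and 51 bases before the upstream start, and the window at its other start held none. On average 3.49% of the gene's RNA per transcript length was assigned to Cdkn1a-202, annotated from the upstream start. Cdkn1a-201, annotated from the other start, held 94.3%. No match was found in the windows of Mdm4, Phlda3, Bbc3 and Cdkn2a, which says only that these letters are not in those windows. A match is a description of the sequence and not evidence of binding in these tumours.

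Cdkn2a has a promoter for each of its products, and the 60 bases before each annotated first exon are given to tell them apart, both on the minus strand of chromosome 4.
p19Arf first exon, chr4:89294654-89294713: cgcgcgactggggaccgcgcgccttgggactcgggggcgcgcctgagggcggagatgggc
p16Ink4a first exon, chr4:89282193-89282252: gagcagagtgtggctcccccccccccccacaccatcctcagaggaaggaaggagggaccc

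The tumours held 59036535 to 82591064 estimated reads. An earlier analysis of these files had named 3 tumours as standing apart, and their values on the marker lists were these. IgG2a replicate 3 had 27828 TPM (a level per transcript length, scaled to a fixed total in each tumour) summed over 5 skeletal muscle markers, against 5.19 to 174 in the 13 other tumours. Its erythroid (1619 TPM against 63.3 to 496), adipocyte (259 against 58.7 to 233) and B cell markers (3.12 against 0.591 to 2.17) were also above the 13. IgG2a replicate 7 had 11276 TPM over 5 adipocyte markers against 58.7 to 233, 55566 over 4 erythroid markers against 63.3 to 496, and 303 over 3 endothelial markers against 24.3 to 54.2. Its fibroblast (1631 TPM against 108 to 961), macrophage (1067 against 144 to 382), epithelial (225 against 36.0 to 76.9) and B cell markers (4.49 against 0.591 to 2.17) were also above the 13. The fibroblast sum was carried by Col1a1, Col1a2 and Dcn, while Pdgfra, at 27.0 TPM, was below its median of 35.9 in the 13. In anti-PD-1 replicate 6, 38993 transcripts were detected against 47997 to 55476 in the rest, and the macrophage and endothelial markers, at 96.8 and 15.1 TPM, were below the 13. The 13 tumours kept some epithelial marker RNA (36.0 to 76.9 TPM over 5 genes), nearly all of it Krt8, with a median of 40.5 TPM, while the median of Epcam was 1.14 TPM and that of Krt14 0.142 TPM. In bulk tissue, fewer cells of a type and less RNA per cell cannot be told apart, and the part of these tissue markers in the values below was not tested.

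Trp53 RNA was the most abundant of the 10 per transcript length. It averaged 183 ± 51.1 TPM (SD, n = 16), higher than 95.5% of the tested genes, with Bax next at 179 ± 33.0 TPM and above it in 6 of the 16 tumours. Cdkn1a followed at 97.1 ± 20.4 TPM, Phlda3 at 63.9 ± 20.02, Mdm2 at 59.1 ± 17.7, Bbc3 at 37.4 ± 11.3, Ccng1 at 29.4 ± 13.2, Mdm4 at 15.96 ± 6.67 and Pmaip1 at 10.4 ± 2.71 TPM. Cdkn2a was far below them at 0.616 ± 0.864 TPM. The steps from Bax to Cdkn1a, from Ccng1 to Mdm4 and from Pmaip1 to Cdkn2a held in 16 of 16 tumours. Phlda3 and Mdm2 did not differ beyond their spread, Phlda3 being the higher in 7 of 16 tumours despite its larger mean. The remaining neighbours kept their order in 13 or 14 of 16 tumours.

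**Figure D1:**
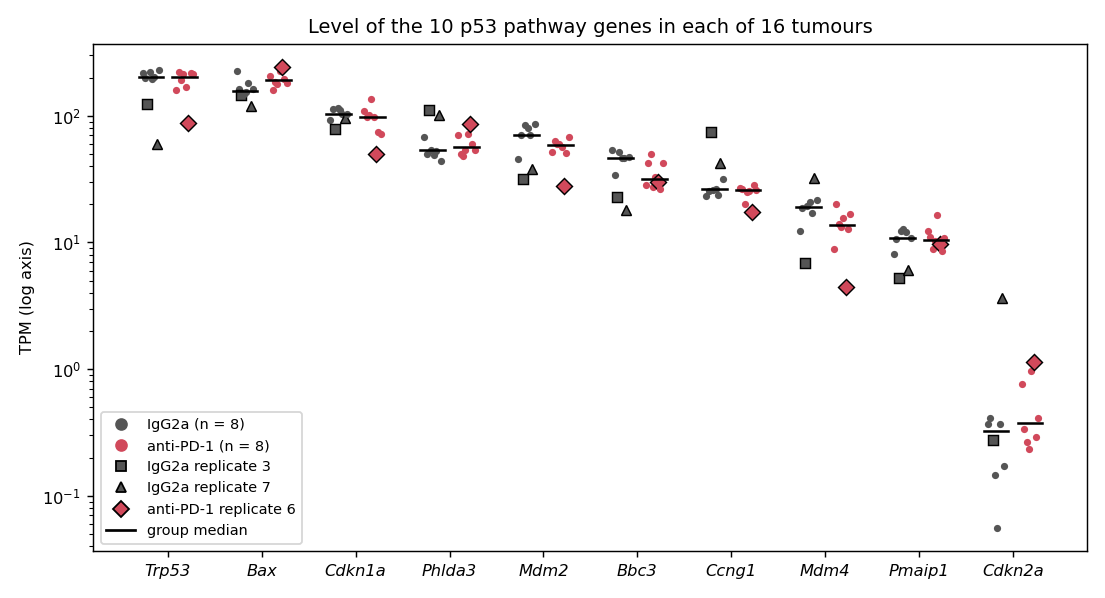
TPM (log axis) of the 10 genes in 16 tumours, ordered by mean, with IgG2a in grey, anti-PD-1 in red, group medians as bars and the 3 tumours named above as separate symbols. Trp53 lies near 200 TPM in most tumours but at 59.6 TPM in IgG2a replicate 7, and Cdkn2a lies below 4 TPM in every tumour.

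Trp53, at the top of the pathway, was also the steadiest member once those tumours were set aside. In CPM, reads relative to the library's total after TMM scaling, Trp53 (ENSMUSG00000059552, chromosome 11, 69580359 to 69591873, plus strand) ranged from 73.3 to 249.5 CPM with a median of 240 under IgG2a, and from 188 to 278 CPM with a median of 253 under anti-PD-1. The value of 73.3 CPM belonged to IgG2a replicate 7, and the other 7 controls lay at 190 CPM or more. The groups overlapped, and 5 of 8 treated tumours exceeded the control median. The estimate under anti-PD-1 was 0.16 ± 0.19 (log2 fold change and SE, 95% interval -0.24 to 0.56), with an adjusted p of 0.684 from edgeR's quasi-likelihood test with Benjamini-Hochberg adjustment over all genes. Among the 13 tumours it was 0.02 ± 0.07 (interval -0.13 to 0.17), and the SD of log2 CPM dropped from 0.45 over 16 tumours to 0.11 over 13, where the medians over all tested genes were 0.45 and 0.27.

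The annotated Trp53 transcripts include forms with different carboxyl ends. Trp53-201 and Trp53-203 share every splice site and differ by 1 base at the end of the RNA, so the estimator's division between them is not interpreted, and their sum was 71.1% of the gene's TPM. Trp53-202 takes a last exon that begins 96 bases earlier and so encodes another carboxyl end. It made up 16.6 ± 2.30% under IgG2a and 16.7 ± 1.66% under anti-PD-1 (SD, n = 8 each), a difference of 0.07 percentage points (two-sided exact permutation p = 0.943). Its share lay between 13.96 and 20.4% in all 16 tumours, the highest being in IgG2a replicate 7, where Trp53 was lowest.

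Of the 2 inhibitors, Mdm2 was even across tumours and Mdm4 less so. Mdm2 (ENSMUSG00000020184, chromosome 10, 117688875 to 117710758, minus strand) ranged from 78.9 to 138 CPM (median 112) under IgG2a and from 97.8 to 128 CPM (median 112) under anti-PD-1. The lowest values were those of IgG2a replicates 7 and 3, at 78.9 and 84.3 CPM, and the treated values lay within the range of the controls. The Mdm2 estimate was 0.05 ± 0.12 (interval -0.21 to 0.30, adjusted p = 0.858 in edgeR). Mdm4 (ENSMUSG00000054387, chromosome 1, 132959484 to 133030561, minus strand) ranged from 43.8 to 102 CPM (median 74.8) under IgG2a and from 41.9 to 80.8 CPM (median 65.4) under anti-PD-1. Its highest value was in IgG2a replicate 7 and its lowest in anti-PD-1 replicate 6 and IgG2a replicate 3, while 1 of 8 treated tumours exceeded the control median. The Mdm4 estimate was -0.19 ± 0.16 (interval -0.54 to 0.15, adjusted p = 0.564 in edgeR). It was -0.11 without IgG2a replicate 7, -0.13 ± 0.11 among the 13 tumours and -0.49 as a mean difference of log2(TPM + 0.1), none called.

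Most Mdm2 RNA was assigned to the full coding transcript Mdm2-201, with 58.6% of the gene's TPM on average. In anti-PD-1 replicate 6 it held 16.8% and the transcript Mdm2-209, annotated as a target of nonsense-mediated decay, held 75.5%. Mdm2-209 held 31.6% in IgG2a replicate 3 and at most 1.97% in the other 7 controls. Under anti-PD-1 it held 22.6, 16.7, 13.7 and 12.2% in replicates 1, 7, 8 and 5, and at most 2.29% in the remaining 3. Its mean share was 4.44 ± 11.02% in the controls and 17.9 ± 24.7% in the treated tumours (SD, 8 a group, two-sided exact permutation p = 0.178). Anti-PD-1 replicates 1, 5, 6, 7 and 8 had 38993 to 52134 transcripts detected, against 52275 to 53343 in replicates 2, 3 and 4. IgG2a replicate 3 had 51503, the fewest of the controls. The part of this in the Mdm2-209 shares was not tested. For Mdm4, the coding transcript Mdm4-210 held 64.3 ± 12.3% under IgG2a and 75.6 ± 9.28% under anti-PD-1 (two-sided exact permutation p = 0.0567). No transcript share of any gene passed adjustment: 0 of 19703 transcripts with a mean share of 10 to 90% were called by the exact permutation test, while 2147 (10.9%) had an unadjusted p under 0.05.

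The Cdkn2a locus (ENSMUSG00000044303, chromosome 4, 89274471 to 89294653, minus strand) was barely detected in most tumours. It had 2 to 37 estimated reads in 14 tumours, 69 in anti-PD-1 replicate 6 and 132 in IgG2a replicate 7. In TPM this is 0.0558 to 0.965 in the 14 tumours, 1.13 and 3.66. At such counts the transcripts can be told apart only roughly, since they share the exons 2 and 3 and differ in the first. The p19Arf transcript Cdkn2a-202 had 111.8 of the estimated reads in IgG2a replicate 7, all 69 in anti-PD-1 replicate 6, and 37 and 36 in anti-PD-1 replicates 5 and 1, and no more than 16 in the others. The p16Ink4a transcript Cdkn2a-201 had 20.2 reads in IgG2a replicate 7, 12 in anti-PD-1 replicate 2, at most 9.40 elsewhere and none in 10 of 16 tumours. A tumour with no assigned read allows up to 3 by counting error alone. Cdkn2a ranged from 0.0297 to 2.13 CPM (median 0.192) under IgG2a and from 0.128 to 1.07 CPM (median 0.199) under anti-PD-1, and the groups overlapped. The estimate was -0.09 ± 0.76 (interval -1.70 to 1.52, adjusted p = 0.962 in edgeR), it turned to 1.35 without IgG2a replicate 7 (adjusted p = 0.558) and was 0.96 ± 0.52 among the 13 tumours (adjusted p = 0.383).

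**Figure D2:**
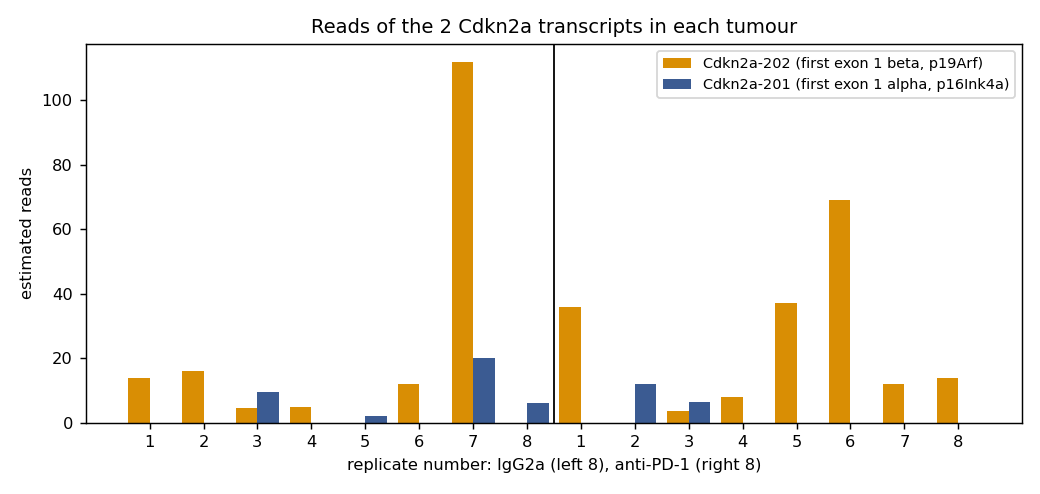
Estimated reads assigned to the p19Arf transcript Cdkn2a-202 (orange) and the p16Ink4a transcript Cdkn2a-201 (blue) in each tumour, IgG2a at the left and anti-PD-1 at the right. The tallest bars are those of IgG2a replicate 7 (111.8 reads) and anti-PD-1 replicate 6 (69 reads), both of the p19Arf transcript.

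Among the targets that halt the cell cycle, Cdkn1a, which encodes the CDK inhibitor p21, was close in the 2 groups. Cdkn1a (ENSMUSG00000023067, chromosome 17, 29090976 to 29100727, plus strand) ranged from 124 to 158 CPM (median 138) under IgG2a and from 100.4 to 187 CPM (median 131) under anti-PD-1. Both ends of the treated range lay outside that of the controls, with anti-PD-1 replicate 4 highest and replicate 8 lowest. Its estimate was -0.01 ± 0.12 (interval -0.27 to 0.25, adjusted p = 0.9752 in edgeR). Cdkn1a was the 1 member whose spread did not shrink among the 13 tumours, with an SD of log2 CPM of 0.23 over 16 and 0.26 over 13. IgG2a replicates 3 and 7 had 138 and 133 CPM, and anti-PD-1 replicate 6 had 121 CPM.

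Ccng1 encodes cyclin G1, which recruits a phosphatase to Mdm2, and Phlda3 encodes a pleckstrin-homology protein that restrains Akt. Ccng1 (ENSMUSG00000020326, chromosome 11, 40748552 to 40755311, minus strand) ranged from 65.3 to 260 CPM (median 73.2) under IgG2a and from 62.0 to 83.7 CPM (median 73.0) under anti-PD-1. The value of 260 CPM was that of IgG2a replicate 3, where skeletal muscle, erythroid, adipocyte and B cell markers were above those of the 13 tumours. Next came 125 CPM in IgG2a replicate 7, and the other 14 tumours lay at 83.7 CPM or less. The Ccng1 estimate was -0.44 ± 0.26 (interval -0.99 to 0.11, adjusted p = 0.450 in edgeR), against -0.07 without IgG2a replicate 3 (adjusted p = 0.790) and 0.05 ± 0.08 among the 13 tumours. Phlda3 (ENSMUSG00000041801, chromosome 1, 135766119 to 135769136, plus strand) ranged from 40.4 to 113 CPM (median 52.3) under IgG2a and from 49.1 to 97.6 CPM (median 54.0) under anti-PD-1. Its 3 highest values were 113 CPM in IgG2a replicate 3, 102 CPM in IgG2a replicate 7 and 97.6 CPM in anti-PD-1 replicate 6, and no other tumour exceeded 62.4 CPM. The Phlda3 estimate was -0.12 ± 0.22 (interval -0.57 to 0.34, adjusted p = 0.808 in edgeR).

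The targets that promote apoptosis included the member with the smallest p. Bax (ENSMUSG00000003873, chromosome 7, 45461697 to 45466898, minus strand), which encodes the protein that permeabilises the mitochondrial outer membrane, ranged from 66.9 to 119 CPM (median 84.6) under IgG2a and from 82.4 to 221 CPM (median 107) under anti-PD-1. The value of 221 CPM was that of anti-PD-1 replicate 6, the other treated tumours reached 122 CPM, and 7 of 8 exceeded the control median although the groups overlapped. The estimate was 0.44 ± 0.18 (interval 0.06 to 0.82), with an unadjusted p of 0.0250 that became 0.434 when adjusted over all genes in edgeR. It was 0.25 without anti-PD-1 replicate 6 (unadjusted p = 0.0533, adjusted p = 0.669) and 0.22 ± 0.12 among the 13 tumours (interval -0.03 to 0.47, adjusted p = 0.369). Within the lower range of animal numbers the mean difference of log2 CPM was 0.05 (3 tumours a group) and within the upper range 0.61 (5 a group). The upper range holds both the highest Bax value, in anti-PD-1 replicate 6, and the lowest, 66.9 CPM in IgG2a replicate 7.

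Bbc3 and Pmaip1 encode the BH3-only proteins Puma and Noxa, which free Bax from its inhibitors. Bbc3 (ENSMUSG00000002083, chromosome 7, 16308393 to 16318205, plus strand) ranged from 15.3 to 40.8 CPM (median 30.4) under IgG2a and from 19.2 to 40.9 CPM (median 28.1) under anti-PD-1. Its lowest value was that of IgG2a replicate 7 and its highest that of anti-PD-1 replicate 6, and 2 of 8 treated tumours exceeded the control median. The Bbc3 estimate was -0.03 ± 0.19 (interval -0.43 to 0.38, adjusted p = 0.955 in edgeR) and became -0.30 ± 0.14 among the 13 tumours (interval -0.59 to -0.01, unadjusted p = 0.0432, adjusted p = 0.308). Pmaip1 (ENSMUSG00000024521, chromosome 18) ranged from 13.2 to 27.0 CPM (median 21.0) under IgG2a and from 17.9 to 34.1 CPM (median 22.1) under anti-PD-1. IgG2a replicates 3 and 7 were the lowest at 13.2 and 13.3 CPM, anti-PD-1 replicates 6 and 5 the highest at 34.1 CPM each, and 5 of 8 treated tumours exceeded the control median. The Pmaip1 estimate was 0.32 ± 0.18 (interval -0.06 to 0.70, adjusted p = 0.446 in edgeR) and 0.08 ± 0.15 among the 13 tumours.

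**Figure D3:**
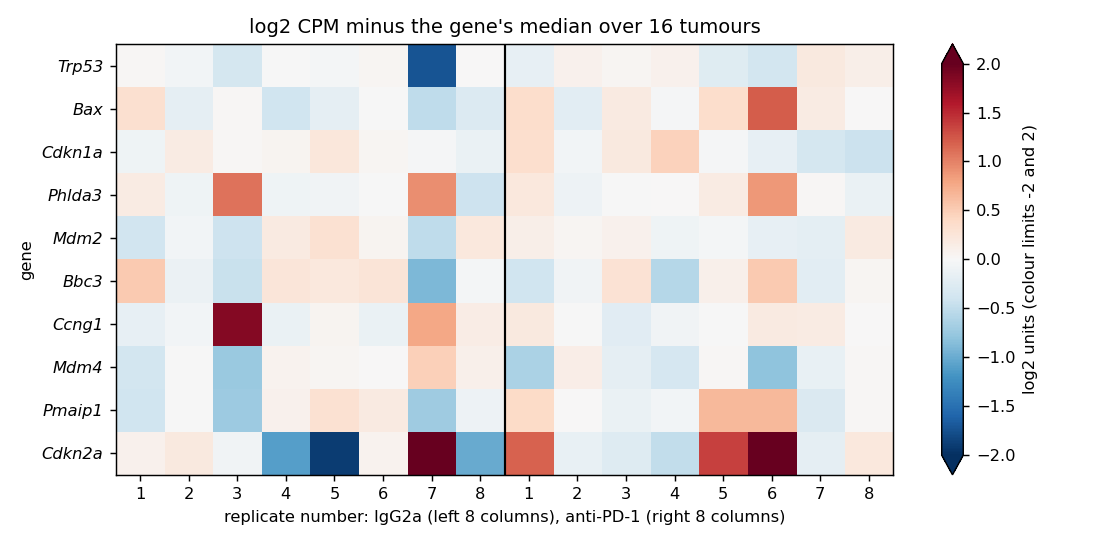
Log2 CPM of each gene minus its median over 16 tumours, with replicates 1 to 8 of IgG2a at the left and of anti-PD-1 at the right (red higher, blue lower, colours saturating at 2 log2 units). The strongest colours lie in columns 3 and 7 of IgG2a and 6 of anti-PD-1, apart from Cdkn2a, which also varies among tumours with few reads.

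Read as a set, the members showed no direction under anti-PD-1. Estimates were higher for 4 members and lower for 6, with a median of -0.02 on the log2 scale beside -0.05 for all tested genes, and among the 13 tumours 6 were higher and 4 lower, with a median of 0.04 beside 0.02. The edgeR test called 0 of 10 members and 0 of 16154 genes (0%) at an adjusted p under 0.05. DESeq2 called 4 genes, none of them a member. At an unadjusted p under 0.05 there was 1 member, Bax, of 10, and 1836 genes (11.4%). Among the 13 tumours there was again 1 member, Bbc3, and 2580 of 16352 genes (15.8%), and 0 genes passed adjustment. Both shares of members are near the background. The intervals set what the samples allow: the 95% interval of Trp53 ended at 0.56 log2 units, that of Mdm2 at 0.30 and that of Cdkn1a at 0.25, whereas that of Cdkn2a ran to 1.52.

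**Figure D4:**
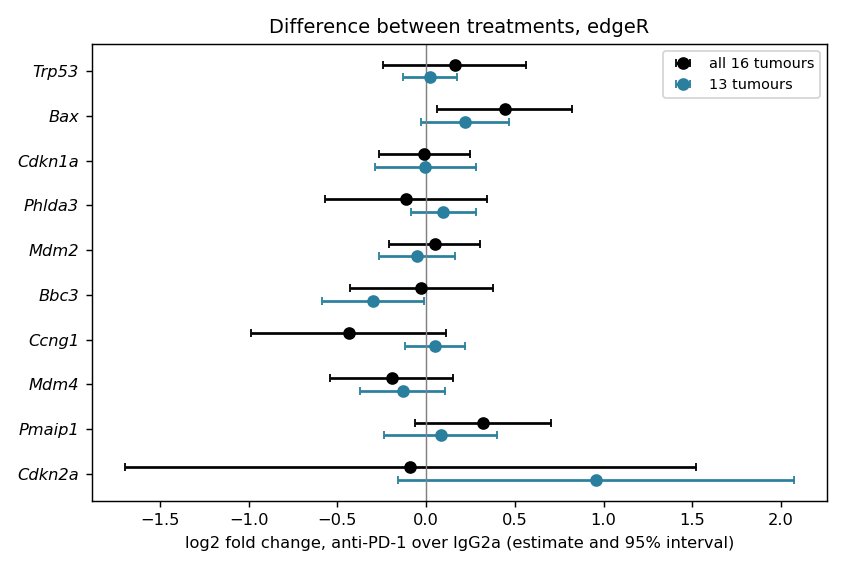
Log2 fold change of each gene, anti-PD-1 over IgG2a, with its 95% interval in edgeR, over all 16 tumours (black) and over the 13 left after removing the 3 tumours that stand apart (blue). With 16 tumours the Bax interval (0.06 to 0.82) is the only interval that leaves out 0, and with 13 tumours only that of Bbc3 (-0.59 to -0.01) does.

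Whether the targets follow Trp53 across tumours was asked with Pearson's r of log2 CPM, with a permutation p adjusted over the 16153 other genes. Over 16 tumours r with Trp53 was 0.59 for Mdm2 (permutation p = 0.00828, adjusted p = 0.0369), -0.70 for Phlda3 (permutation p = 0.00166, adjusted p = 0.0132) and -0.75 for Cdkn2a (permutation p = 0.00122, adjusted p = 0.0112). So 3 of 9 members were called, beside 4120 genes (25.5%). None of these 3 was called by Spearman's rho, which was 0.28 for Mdm2 (permutation p = 0.29, adjusted p = 0.582), -0.61 for Phlda3 (permutation p = 0.0139, adjusted p = 0.215) and -0.48 for Cdkn2a (permutation p = 0.0616, adjusted p = 0.309). The other members were not called over 16 tumours in log2 CPM, at r of 0.53 for Bbc3, 0.35 for Pmaip1, 0.17 for Bax, -0.01 for Cdkn1a, -0.24 for Mdm4 and -0.50 for Ccng1. Some of these calls depend on the scale or on 1 tumour. Bbc3 was called in log2(TPM + 1), at r of 0.71 (adjusted permutation p = 0.0102), in log2(TPM + 0.1) and without anti-PD-1 replicate 6. Without IgG2a replicate 7 the r of Mdm4 with Trp53 turned to 0.65 and was called (adjusted permutation p = 0.0489), while Mdm2 and Cdkn2a were not. Phlda3 stayed called there, at r of -0.80 (adjusted permutation p = 0.0340). Without IgG2a replicate 3 the r of Ccng1 with Trp53 was -0.84 and was called (adjusted permutation p = 0.0457), while Mdm2 was not. An r of 0.5 or more was reached by 2 of 9 members (Mdm2 and Bbc3) and by 24.1% of genes, and an r of -0.5 or less by 2 of 9 (Phlda3 and Cdkn2a) and 25.3% of genes. The members' shares are near those of genes at large.

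These relations rest on few tumours, although that of Phlda3 did not rest on any 1 of them. With each tumour left out in turn, the r of Phlda3 with Trp53 ran from -0.80 to -0.69 and stayed called. Anti-PD-1 replicate 6 and IgG2a replicate 7 lie farthest from the median of Trp53. Without this pair r was 0.27 for Mdm2, -0.72 for Phlda3 (permutation p = 0.00601, adjusted p = 0.127) and -0.34 for Cdkn2a, none called. Over the 13 tumours r was -0.16 for Mdm2, -0.39 for Phlda3 and -0.42 for Cdkn2a, and 0 genes of 16153 were called (1789 had an unadjusted permutation p under 0.05). In those 13, 0 of 9 members had an r of 0.5 or more and 1, Pmaip1, an r of -0.5 or less, where 7.92% and 8.28% of genes did. The r of Pmaip1 was -0.77 (rho = -0.58), with a permutation p of 0.00247 and an adjusted p of 0.273, against 0.35 over all 16 tumours. None of the 6 targets had a positive r with Trp53 among the 13 tumours, the values running from -0.77 for Pmaip1 to -0.06 for Bbc3. The median r over all tested genes was 0.02 there. Only Pmaip1 among the targets had an unadjusted permutation p under 0.05, so the signs are not read as targets running against Trp53.

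The relation of Trp53 with Pmaip1 differed in sign between the treatment groups with all tumours kept, but not once the tumours apart were left out. Over the 8 IgG2a tumours r was 0.67 and over the 8 anti-PD-1 tumours -0.95. Without the tumours apart it was -0.31 in the remaining 6 IgG2a tumours and -0.95 in the remaining 7 anti-PD-1 tumours. For Bax the r with Trp53 was 0.53 under IgG2a and -0.84 under anti-PD-1, or 0.42 and -0.70 without those tumours. For Bbc3 it was 0.86 and -0.49, or 0.58 and -0.09. These within-group values are descriptions over few tumours, and the difference between groups was not tested. Under anti-PD-1, replicates 1, 5 and 6 combined the 3 lowest values of Trp53 (218, 206 and 188 CPM) with the 3 highest of Pmaip1 (28.4, 34.1 and 34.1 CPM), of Bax (122, 122 and 221 CPM) and of Cdkn2a (0.471, 0.540 and 1.07 CPM). They also had the 3 lowest numbers of transcripts detected among the treated tumours, 47997, 51672 and 38993 against 51919 or more, and the part of this in the pattern was not tested.

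Co-variation with Cdkn2a, the locus of the upstream activator, was read with its low counts in mind. Over 16 tumours r was -0.75 with Trp53 (permutation p = 0.0012, adjusted p = 0.00925) and 0.67 with Phlda3 (permutation p = 0.00615, adjusted p = 0.0264, rho = 0.54 with permutation p = 0.0316 and adjusted p = 0.117), so 2 of 9 members were called beside 5050 genes (31.3%). Mdm2 stood at -0.59 (adjusted permutation p = 0.0502) and Bax at 0.36. An r of 0.5 or more was found for 1 of 9 members and 22.3% of genes, and an r of -0.5 or less for 2 of 9 members and 23.1% of genes. The same pair of tumours lies farthest from the median of Cdkn2a, and without it r was -0.34 for Trp53 and 0.31 for Phlda3. Over the 13 tumours 0 genes were called and 5108 had an unadjusted permutation p under 0.05. There r was 0.73 for Bax (adjusted permutation p = 0.0670) and 0.62 for Phlda3 (adjusted permutation p = 0.112), the 2 of 9 members with an r of 0.5 or more beside 19% of genes, and 0 of 9 had an r of -0.5 or less beside 20.1% of genes. Without IgG2a replicate 3, 4 of 9 members were called over 15 tumours, beside 35.2% of genes. Without IgG2a replicate 7 it was 1, beside 33.0% of genes. That member was Bax (r of 0.84, adjusted permutation p = 0.0085), while Trp53 and Phlda3 were no longer called. Without anti-PD-1 replicate 6 it was also 1, beside 32.9% of genes.

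**Figure D5:**
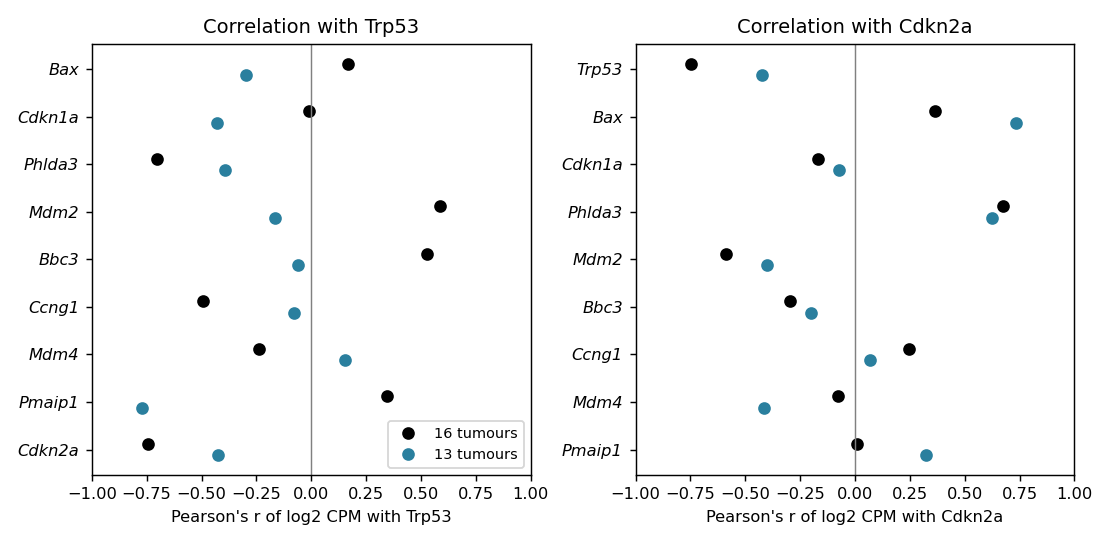
Pearson's r of log2 CPM of each gene with Trp53 (left) and with Cdkn2a (right), over 16 tumours (black) and over the 13 left after removing the 3 tumours that stand apart (blue). With Trp53, Mdm2 moves from 0.59 to -0.16 and Pmaip1 from 0.35 to -0.77, and with Cdkn2a, Bax moves from 0.36 to 0.73.

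The protein-coding genes whose pattern was most like that of Trp53 by Pearson's r over 16 tumours were Dlgap5 and Ccnb1, which act in mitosis, the transcription factor gene Myc, Taf5l and the kinesin gene Kif4, at r of 0.98 for each. Over the 13 tumours their r ran from 0.70 for Taf5l and Kif4 to 0.85 for Dlgap5, with 0.83 for Myc and 0.79 for Ccnb1. Each was lowest in IgG2a replicate 7, where Myc had 90.2 CPM against a median of 518 and Ccnb1 27.2 CPM against 105. Those most like Cdkn2a were Ramp2 and Gpr137 at r of 0.93, then Plekho1, Clta and Aph1c at 0.91. Over the 13 tumours their r ran from 0.79 to 0.85, and each was highest in IgG2a replicate 7, where Ramp2 had 76.2 CPM against a median of 29.7.

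The other p53 target genes were described from a list of 32, of which 31 were tested. None passed in either direction, 14 estimates were higher and 17 lower under anti-PD-1, and the list's median was -0.02, beside -0.05 for all genes. Among the 13 tumours 21 were higher and 10 lower, with a median of 0.08 beside 0.02, and again none passed. The 2 of smallest p were Gdf15, a stress cytokine, at 23.9 ± 5.04 CPM in the controls and 40.2 ± 24.8 in the treated tumours (SD, n = 8 each), and Eda2r, a receptor of the TNF family that p53 raises, at 2.81 ± 3.42 and 1.16 ± 0.734 CPM. Their log2 fold changes were 0.75 ± 0.29 and -1.28 ± 0.60 (SE), both with an adjusted p of 0.434 in edgeR. Eda2r had 11.1 CPM in IgG2a replicate 3 against 2.55 or less in every other tumour, and its estimate was -0.16 among the 13 tumours. Gdf15 had 93.2 CPM in anti-PD-1 replicate 6, with 17.4 to 57.5 CPM in the 13, where its estimate was 0.40. The most abundant per length were Rps27l (392 ± 74.4 TPM), a ribosomal protein paralog, and Ei24 (54.0 ± 6.82 TPM), with log2 fold changes of 0.43 ± 0.21 and 0.05 ± 0.07, or 0.31 and 0.02 among the 13 tumours. Reads of Rps27l may be shared with its near copy Rps27, and its value is uncertain for that reason.

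Of 20 regulators of p53, all tested, 0 passed, and 12 estimates were higher and 8 lower with a median of 0.03. Among the 13 tumours 9 were higher and 11 lower, with a median of -0.02. Hipk2, a kinase that phosphorylates p53, had 16.4 ± 4.34 CPM under anti-PD-1 and 28.1 ± 16.6 under IgG2a, a log2 fold change of -0.77 ± 0.28 (adjusted p = 0.434 in edgeR). In IgG2a replicate 7 it had 66.7 CPM, and among the 13 tumours the estimate was -0.49 (adjusted p = 0.276). Prkdc, the catalytic subunit of the DNA-dependent protein kinase, was at -0.29 ± 0.13 (adjusted p = 0.434 in edgeR). Among the 13 tumours Prkdc was at -0.30 (unadjusted p = 0.00828, adjusted p = 0.276 in edgeR). The ribosomal protein gene Rpl11, whose product can bind Mdm2, and Npm1, which holds p19Arf in the nucleolus, were the most abundant at 1969 ± 366 and 1735 ± 373 TPM. Both were highest in anti-PD-1 replicate 6 and lowest in IgG2a replicate 7, as Rpl11 shows with 1543 and 398 CPM, and their log2 fold changes were 0.34 ± 0.20 and 0.35 ± 0.22, or 0.04 and 0.13 among the 13 tumours.

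The BCL2 family and apoptosome list had 15 of 16 genes tested and 0 called, with 7 higher and 8 lower estimates and a median of -0.01. Bmf and Bik, both BH3-only genes, had the smallest p, with log2 fold changes of -0.69 ± 0.35 and -1.24 ± 0.65 (adjusted p = 0.435 in edgeR for both). Each peaked in IgG2a replicate 7, Bmf at 23.0 CPM against 7.63 or less in the 13 tumours and Bik at 3.72 against 0.803 or less. Among the 13 tumours the estimates were -0.15 and 0.04. Cycs, which encodes cytochrome c, at 268 ± 43.1 TPM, and Bcl2l1, which encodes the survival protein Bcl-xL, at 216 ± 54.5 TPM, were the most abundant. Their log2 fold changes were 0.28 for both, and 0.23 and 0.06 among the 13 tumours.

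Genes of the cyclin, CDK inhibitor and RB axis numbered 19, all tested, with 0 called, 9 higher and 10 lower estimates and a median of -0.07. Ccne2 and Cdk2, a cyclin E and its kinase, had the smallest p, at log2 fold changes of 0.43 ± 0.18 and 0.22 ± 0.10 (adjusted p = 0.434 in edgeR for both), or 0.22 and 0.11 among the 13 tumours (unadjusted p = 0.120 and 0.141). Cdk4, the cyclin D kinase that p16Ink4a inhibits, was the most abundant at 598 ± 105 TPM with an estimate of 0.22 ± 0.14 (0.10 among the 13 tumours). Ccnd1, a cyclin D, had 166 ± 51.9 TPM and -0.15 ± 0.15, or -0.24 among the 13 (unadjusted p = 0.0117, adjusted p = 0.276 in edgeR). Of 13 mitotic genes known to be repressed through p21, all tested, 0 were called, 10 estimates were higher and 3 lower, and the median was 0.17, or 0.02 with 7 higher and 6 lower among the 13 tumours. Birc5, the survivin gene, was at 0.68 ± 0.31, Cdk1 at 0.31 ± 0.20 and Top2a at -0.01 ± 0.22, with adjusted p of 0.434, 0.469 and 0.986 in edgeR. Among the 13 tumours they were at 0.35, 0.14 and -0.13, with unadjusted p of 0.0108, 0.0854 and 0.139 and adjusted p of 0.276, 0.380 and 0.450 in edgeR. All 3 were lowest in IgG2a replicate 7, Cdk1 for instance at 38.5 CPM against 110.0 to 155 in the 13 tumours. The p53 relatives Trp63 and Trp73 were too low to be tested, with medians of 0.0113 and 0.0143 TPM.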

How the data were processed

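RNA of 16 tumours, 8 per antibody, was sequenced from oligo-dT-enriched libraries of a non-directional kit, from samples with an RNA integrity number over 5, per the labels' protocols. Per the file headers, each deposited table lists estimated counts for every transcript, with the authors' TPM beside them and, as other columns, length and effective length. The submitters' processing notes name GRCm38, edgeR and limma. Neither the quantifier nor its annotation is given in the sources used here. Estimated counts divide reads between similar transcripts, so shares of transcripts are less certain than gene sums.

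Transcripts were matched to GENCODE vM21 (114200 of 115088, with 0.167 to 0.217% of reads unmatched and left out), summed per gene and rounded. No member shares exon bases with another annotated gene. Genes passing filterByExpr (minimum count 10, minimum total 15) were scaled by TMM and tested by quasi-likelihood with robust fitting (edgeR 4.0.16, R 4.3.3), with Benjamini-Hochberg adjustment over 16154 genes and a threshold of 0.05. The SE is the fold change over the root of F. Log2 CPM used a prior count of 2. Correlations used 100000 permutations of the tumours, two-sided. Transcript shares used all 12870 assignments. Alternatives were DESeq2 1.42.0, limma 3.58.1 and the settings given at the end. The edgeR test, the permutation test of Pearson's r and the exact permutation test of shares were checked on simulated data without outlying tumours. DESeq2, limma, Spearman's rho and the within-group correlations were not checked in this way.

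Replicates are separate animals by their labels, numbered here in accession order, and the numbers pair nothing. Ranges of animal numbers (lower or upper) in the titles entered only alternative settings, as a term of the fit or by centring. The main tests had no covariate. Named genes are the members, of each list the 2 of smallest p and the 2 of highest TPM, and the 5 protein-coding genes of mean log2 CPM of at least 1 with the highest r. The members, the lists, the 3 tumours left out and the tests were chosen with earlier results of these data known. Promoter sequences are from RefSeq.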

Additional observations from a re-analysis of the deposited data

Results flagged for a closer look

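In 5 of 20 pairs of a gene and a group of 8 tumours, 1 tumour lay apart from the other 7 by more than Dixon's 95% limit on log2 CPM. The share flagged over all tested genes was not computed. The count therefore has no background beside it and is not read as an excess or as particular to the members. The median SD of log2 CPM of all tested genes, 0.45 over 16 tumours and 0.27 over 13, does not give that share. Trp53 was 73.3 CPM in IgG2a replicate 7 and 190 to 249.5 CPM in the other controls. Cdkn2a was 2.13 CPM in the same tumour and 0.0297 to 0.224 CPM in the other controls. Ccng1 was 260 CPM in IgG2a replicate 3 and 65.3 to 125 CPM in the other controls. Bax was 221 CPM in anti-PD-1 replicate 6 and 82.4 to 122 CPM in the other treated tumours. Phlda3 was 97.6 CPM in that tumour and 49.1 to 62.4 CPM in the others. All 5 values belong to the 3 tumours that stand apart in tissue markers or transcripts detected, whose part in them was not tested.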

How the results depend on the processing

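No paired analysis was possible because the labels give no replicate numbers. The edgeR count of 0 genes held under all alternatives but DESeq2, which called 4 genes. DESeq2 without the 3 tumours, an alternative chosen after seeing the data as were rho over 13 tumours and the within-group values over 6 and 7 tumours, called 29 genes and no member. No member was called by any of 29 fits, no list gene by DESeq2, limma-voom or over 13 tumours, and no transcript share by any of 18. Depth limits Cdkn2a above all, at 2 to 37 reads in 14 tumours.

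Directions of log2 fold changes that turned, none of them called, were as follows, and the cause was not tested beyond the libraries named. Without the 3 tumours edgeR gave Mdm2 -0.053, Cdkn2a 0.96, Ccng1 0.048, Phlda3 0.10 and Bik 0.042, and DESeq2 gave Mdm2 -0.047, Cdkn1a 0.0016, Cdkn2a 0.97, Ccng1 0.054 and Phlda3 0.10. Voom gave Cdkn2a 0.70 and Top2a 0.090, and with quality weights Mdm2 -0.035, Cdkn2a 0.76, Pmaip1 -0.021, Ccng1 0.012 and Phlda3 0.060. The permutation test gave Cdkn2a 0.55. TPM + 1 gave Mdm2 -0.16 and Cdkn2a 0.041, and TPM + 0.1 gave -0.16 and 0.36. No filter gave Cdkn1a 0.0034, and upper-quartile scaling Cdkn1a 0.019 and Bbc3 0.0069. Leaving out 1 replicate gave ranges of -0.0065 to 0.11 for Mdm2, -0.085 to 0.046 for Cdkn1a, -0.54 to 1.35 for Cdkn2a, -0.12 to 0.061 for Bbc3 and -0.25 to 0.047 for Phlda3. The Mdm2-201 share difference was 1.97 points over 13 tumours and -6.93 to 0.734 leaving out 1. Mean differences of log2 CPM within the lower and upper ranges of animal numbers, not tested, had opposite signs for several members. They were 0.37 and -0.10 for Mdm2, 0.15 and -0.39 for Mdm4 and 0.12 and -0.13 for Cdkn1a. For Bbc3 they were -0.045 and 0.016, and for Phlda3 -0.35 and 0.11.

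The count of members called with Trp53 was 3 of 9, beside 25.5% of genes. It became 0 with rho (0.08% of genes), without the 2 farthest tumours (0.03%) and over 13 tumours by r and by rho (0%). It became 4 in TPM + 1 (35.5% of genes), in TPM + 0.1 (34.1%) and without anti-PD-1 replicate 6 (35.0%). It was 2 without IgG2a replicate 7 (18.3%) or anti-PD-1 replicate 8 (24.3%). With Cdkn2a the count was 2 of 9, beside 31.3% of genes. It became 0 in the same settings as with Trp53, where 12.7% of genes were called with rho and 0% in the others. It became 3 in TPM + 1 (21.3% of genes), in TPM + 0.1 (23.5%) and centred by treatment (35.9%) or by number range (33.3%). With 1 replicate left out it was 1 to 4, beside 25.5 to 35.2% of genes. Signs of r with Trp53 that turned were, with rho, Bax -0.085, Pmaip1 -0.16 and Mdm4 0.11. Over 13 tumours they were Bbc3 -0.060, Bax -0.30, Mdm2 -0.16, Pmaip1 -0.77 and Mdm4 0.15, and by rho Bbc3 -0.088, Bax -0.13, Mdm2 -0.21 and Pmaip1 -0.58. Without the 2 farthest they were Bax -0.23, Pmaip1 -0.055 and Mdm4 0.50. Cdkn1a was 0.0096 centred by treatment, 0.42 in TPM + 1 and TPM + 0.1, and 0.17 within IgG2a, and Mdm4 was 0.19 in TPM + 1, 0.20 in TPM + 0.1 and 0.62 within anti-PD-1, where Bbc3 was -0.49, Pmaip1 -0.95 and Bax -0.84. Leaving out 1 replicate gave -0.057 to 0.63 for Bbc3, -0.55 to 0.42 for Bax, -0.29 to 0.45 for Pmaip1, -0.36 to 0.65 for Mdm4 and -0.15 to 0.082 for Cdkn1a. Signs of r with Cdkn2a turned for Pmaip1, at -0.095 centred by treatment, -4.7e-05 by number range, -0.28 and -0.24 in TPM + 1 and + 0.1, -0.70 within IgG2a and -0.22 to 0.45 leaving out 1. They also turned for Bax, at -0.14 in TPM + 1 and -0.25 within IgG2a, for Mdm4, at 0.10 in TPM + 1, 0.33 within IgG2a and -0.56 to 0.18 leaving out 1, and for Bbc3, at 0.52 within anti-PD-1 and -0.55 to 0.12 leaving out 1.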
